A study of Mus musculus with 6 samples.

Results

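Collagen transcripts were examined in mandibular arches of mouse embryos, the paired swellings from which the lower jaw forms, with and without a functional Tbx1 gene. The family was taken as every gene whose symbol consists of Col, a number, the letter a and a number, and it comprised 42 of the 18194 genes that the array annotation names singly. These 42 genes were read by 82 probe sets, of which the brightest set per gene was used. The arrays were 3 labelled Tbx1-/- and 3 labelled Tbx1+/+, all of C57BL/6 embryos at E10.5, hybridized to Affymetrix Mouse Genome 430 2.0 arrays. Tbx1 encodes a T-box transcription factor of the pharyngeal region, and the series asks which transcripts of this tissue differ in its absence. The labels describe a pool of arches from 3 embryos for each genotype without saying whether every array had a pool of its own. The p-values therefore rest on the spread between these arrays alone.

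Collagens are matrix proteins whose chains wind into a triple helix in which every turn needs a small glycine. Fibrillar collagens form the ropes of connective tissue, type IV collagens form the sheet of basement membranes, and FACIT collagens sit on the surface of fibrils. Network collagens form hexagonal lattices, and transmembrane collagens are anchored in the cell surface. At this stage the arch consists mainly of neural crest mesenchyme around a mesodermal core, wrapped in epithelium and carrying vessels, and its cartilage has not yet formed.

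Sequences are shown for the 2 collagen VIII genes, because one of them had the widest difference between the genotypes within the family and its partner did not. They are the 250 bases before the annotated start, from RefSeq (GRCm38.p6), with capitals marking the GC box GGGCGG or its reverse complement CCGCCC. The Col8a2 window lies at chr4:126286544-126286793 on the plus strand and the Col8a1 window at chr16:57754738-57754987 on the minus strand.
Col8a2: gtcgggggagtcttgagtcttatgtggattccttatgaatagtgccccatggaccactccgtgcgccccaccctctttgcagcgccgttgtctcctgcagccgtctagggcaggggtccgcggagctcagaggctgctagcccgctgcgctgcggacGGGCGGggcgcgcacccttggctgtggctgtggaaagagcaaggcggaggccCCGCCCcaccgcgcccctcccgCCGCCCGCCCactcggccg
Col8a1: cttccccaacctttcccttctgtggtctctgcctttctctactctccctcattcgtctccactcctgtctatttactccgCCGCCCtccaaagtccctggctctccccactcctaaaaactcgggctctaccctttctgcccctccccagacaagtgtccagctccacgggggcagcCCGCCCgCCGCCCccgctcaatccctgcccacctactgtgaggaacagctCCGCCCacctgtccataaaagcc
Both windows held the GC box at 4 places, from 10 to 93 bases before the start in Col8a2 and from 18 to 170 bases before it in Col8a1, and in Col8a2 the pair nearest the start share letters. The GC content was 70.0% for Col8a2 and 60.8% for Col8a1.

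Promoter windows were found for 33 of the 42 genes, in 36 entries. The GC box, searched on both strands in the 250 bases before the start, occurred in 21 of the 36 collagen windows (58.3%), against 32.7% of 32851 windows of all genes. The CCAAT box (CCAAT) occurred in 13 collagen windows (36.1%, against 33.8% of all) and the TATA box (TATAAA) in 5 (13.9%, against 12.4%). The T-box site GGTGTGA occurred in 0 of the 36 collagen windows, against 3.33% of all windows, which says only that these letters are not in them. No match of one motif overlapped a match of another.

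The samples were checked before the comparison. Tbx1 signal, read by 1 probe set, was 7.59, 7.50 and 7.30 on the labelled Tbx1-/- arrays, against 6.93, 7.31 and 6.92 on the labelled Tbx1+/+ arrays (log2). Its mean was thus not lower but higher, by 0.41 (SE 0.143, unadjusted p = 0.0205 in limma). The groups overlapped, and the difference did not pass after adjustment. The sources used here do not say which part of the gene was disrupted, and the probe set therefore does not check the labels. Directions below follow the labels. Labelled Tbx1-/- replicate 3 stood apart, with 249 genes more than 1 (log2) above the mean of the other arrays, against 6 to 32 on each of the others. The placental gene Prl7a1 read 13.28 there, 4.03 and 4.76 on the other labelled Tbx1-/- arrays and 3.53 to 3.87 on the labelled Tbx1+/+ arrays. Results are therefore also given without that array. Xist, which is transcribed from the inactive X chromosome of female cells, read 11.55, 5.6 and 10.6 on labelled Tbx1-/- replicates 1, 2 and 3, against 10.44 to 11.53 on the labelled Tbx1+/+ arrays, so that labelled Tbx1-/- replicate 2 was low. By Prl7a1 and Xist the labelled Tbx1-/- arrays did not carry RNA of 1 shared pool, and for the labelled Tbx1+/+ arrays the values do not settle it. The 12 markers of jaw mesenchyme, among them Prrx1, Twist1 and Dlx5, exceeded the low-value filter, and their summed signal (log2) spanned 15.04 to 15.11 on the labelled Tbx1-/- arrays and 15.04 to 15.12 on the labelled Tbx1+/+ arrays. In such bulk tissue, fewer cells of a type and less RNA per cell cannot be told apart.

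Of the 42 collagen genes, 38 exceeded 4 (log2) on at least 3 arrays and were tested. Col4a3, Col6a4, Col6a5 and Col10a1 did not. Among the 38, 0 passed at an adjusted p under 0.05 in limma with Benjamini-Hochberg adjustment over 16074 genes, where 0.0373% of all genes passed (0.0124% as higher and 0.0249% as lower ones). Before adjustment, 3 had a p under 0.05 and were lower, where 1.20% of all genes were, and 0 were higher, where 1.47% of all genes were (2.68% in either direction). Without labelled Tbx1-/- replicate 3, limma gave 1 lower at that p (Col8a2) and 2 higher, Col1a1 by 0.40 and Col5a3 by 0.46. The share over all genes was not taken for that fit. With all 6 arrays, the labelled Tbx1-/- values all lay below the labelled Tbx1+/+ values for 4 of the 38, namely Col8a2, Col9a1, Col11a1 and Col13a1, where 3.25% of all genes did so. For 0 of the 38 they all lay above, where 3.17% of all genes did so (6.43% in either direction). The median difference over the 38 was -0.01, as it was over all genes tested, with 19 means higher and 19 lower. The median size of the difference, whatever its sign, was 0.10 for the collagen genes and 0.07 for all genes. The family as a whole thus showed no common shift, and 1 gene, Col8a2, lay far outside the range of the others, which ran from -0.35 to 0.37.

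**Figure D1:**
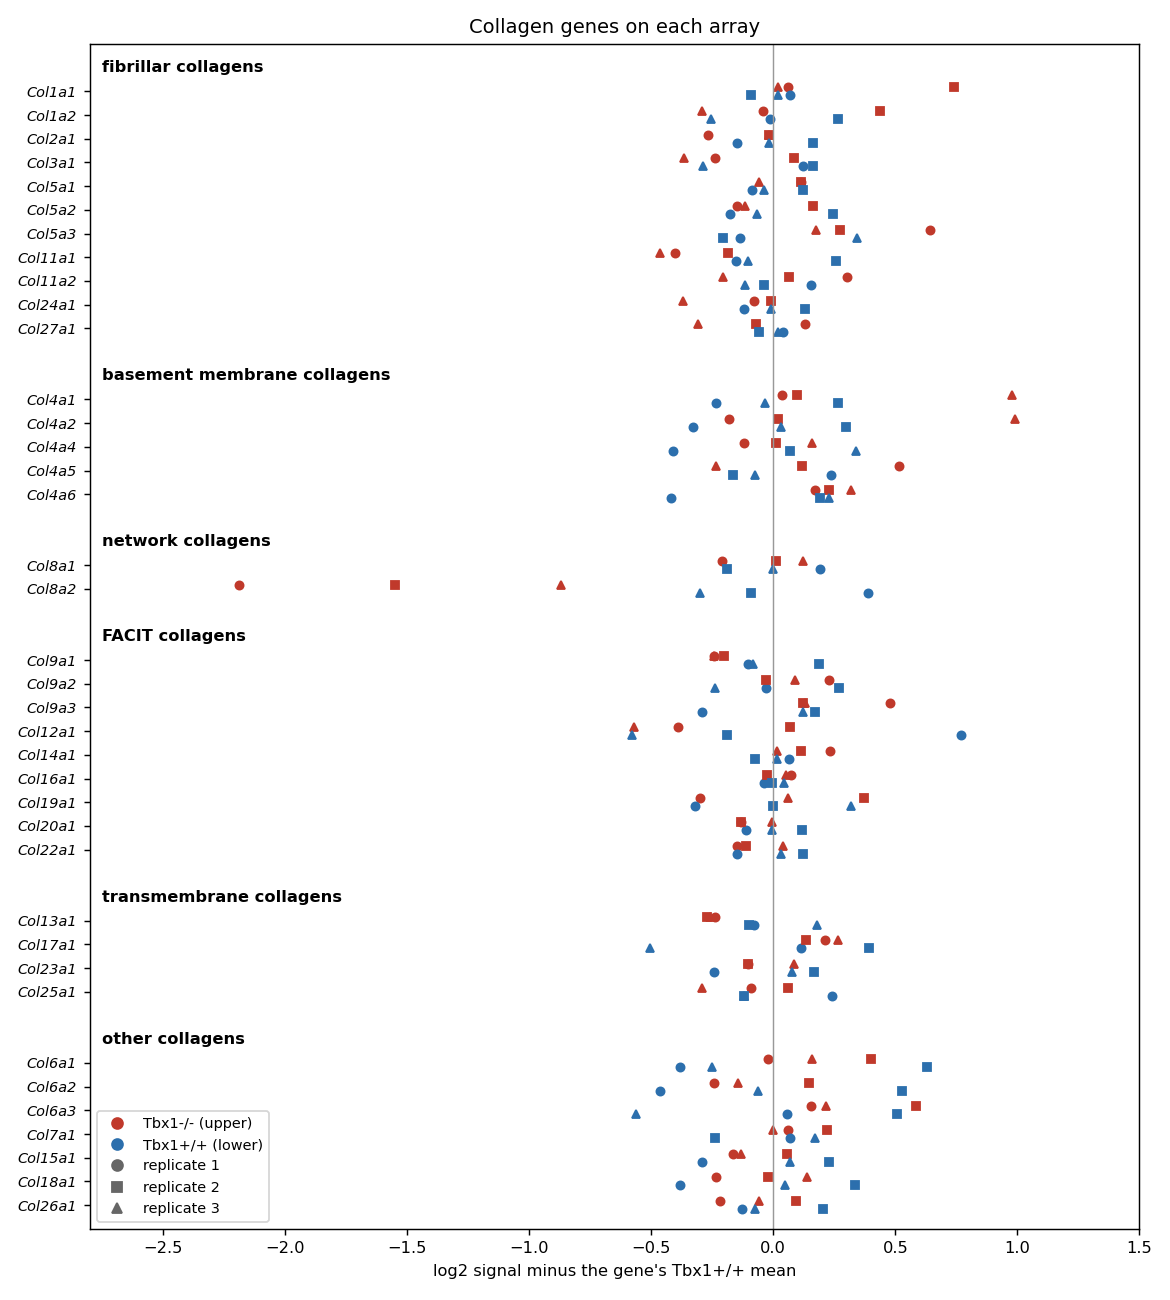
Signal of the 38 tested collagen genes on each array, as the log2 signal minus the mean of that gene on the Tbx1+/+ arrays (horizontal axis), by class. Upper red symbols are Tbx1-/- and lower blue symbols Tbx1+/+ arrays, and the symbol shape gives the replicate number. Col8a2 stands to the left on all 3 Tbx1-/- arrays, and Col4a1 and Col4a2 stand to the right on Tbx1-/- replicate 3.

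The network collagens held the widest difference. Col8a2, a chain of the lattice that underlies the corneal endothelium and surrounds some vessels, read 6.42, 7.06 and 7.74 (log2) on labelled Tbx1-/- replicates 1, 2 and 3, against 9.0, 8.52 and 8.31 on labelled Tbx1+/+ replicates 1, 2 and 3. The groups were separated by a gap, and replicate 3 of the labelled Tbx1-/- arrays lay nearest to the other genotype. The means were 7.07 ± 0.66 and 8.61 ± 0.35 (SD, n = 3 each), so Col8a2 was 2.90-fold lower (log2 difference -1.54, SE 0.314, 95% interval -2.26 to -0.82). This ranked 35 among the 16074 genes by p in limma (unadjusted p = 0.00107) and did not pass after adjustment (adjusted p = 0.493).

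Without labelled Tbx1-/- replicate 3, the array with the placental signal, the Col8a2 difference was -1.87 (SE 0.236) and passed in limma (adjusted p = 0.0235), the only collagen gene to do so under any of the alternatives run. Leaving out any of the other arrays gave -1.21 to -1.69, with adjusted p-values of 0.760 or above. Taken by replicate number, the difference was -2.58, -1.46 and -0.57 in pairs 1, 2 and 3, and with that number as a block the adjusted p was 0.509. Col8a2 has 1 probe set on the array, so no other set could be compared.

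Col8a1, the usual partner of Col8a2 in type VIII collagen, did not show that difference. It read 5.95, 6.17 and 6.28 on the labelled Tbx1-/- arrays, against 6.35, 5.97 and 6.16 on the labelled Tbx1+/+ arrays, and the groups overlapped. Its difference was -0.03 with a 95% interval of -0.35 to 0.30, which does not meet the interval of Col8a2. The other probe sets of Col8a1 had means below 4, with differences of -0.11 and 0.04, so this reading rests on 1 set. Col10a1, the collagen of hypertrophic cartilage, stayed between 3.44 and 3.76 on every array and was not tested.

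Other cell type markers were read beside Col8a2. Of all genes tested, 3.17% were higher and 3.25% lower without overlap (6.43% in either direction). The 6 regulators of the myogenic core had a summed signal (log2) of 7.61 to 7.92 on the labelled Tbx1-/- arrays and 9.15 to 9.29 on the labelled Tbx1+/+ arrays, and all 6 had groups that did not overlap. The marker lists were chosen with earlier results of these data known, so this count is not independent of those results. The 8 endothelial markers spanned 11.26 to 11.37 on the labelled Tbx1-/- arrays and 11.18 to 11.32 on the labelled Tbx1+/+ arrays, and 0 of 8 had groups that did not overlap. Of 12 markers of parietal endoderm and yolk sac, 6 had higher and 6 lower means. Among them 2 were higher without overlap (Gata6 by 0.86 and Sox17 by 0.64) and 2 were lower without overlap (differences of -1.78 for Ttr and -1.47 for Afp). Of 6 neuronal markers 3 were higher without overlap, Stmn2 by 0.90, Pou4f1 by 0.34 and Neurod1 by 0.26, with a median of 0.19 over the list. Of 4 osteoblast markers Sp7 was higher without overlap, by 0.43, and Ibsp lower, with a difference of -0.05. Of 7 macrophage markers 1, Mrc1, was lower without overlap, with a difference of -0.40. Of 7 epithelial markers 1, Krt18, was higher without overlap, by 0.80. Of 3 tested trophoblast markers, Prl4a1 was higher without overlap, by 2.76. Prl7a1 was too, by 3.65, but it exceeded 4 on the labelled Tbx1-/- arrays alone, so the filter fixed its separation. Krt18, Prl7a1 and Prl4a1 were highest on labelled Tbx1-/- replicate 3. All 5 primitive erythroid markers had lower means, with a median of -0.11 and 0 without overlap, and 0 of 5 tested decidual markers lacked overlap. Gzmd, another decidual marker, did not exceed the filter and was not tested. It read 3.35, 5.47 and 9.23 on the labelled Tbx1-/- arrays, against 3.16, 2.61 and 3.25 on the labelled Tbx1+/+ arrays. The part of these cells in the Col8a2 result was not tested.

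**Figure D2:**
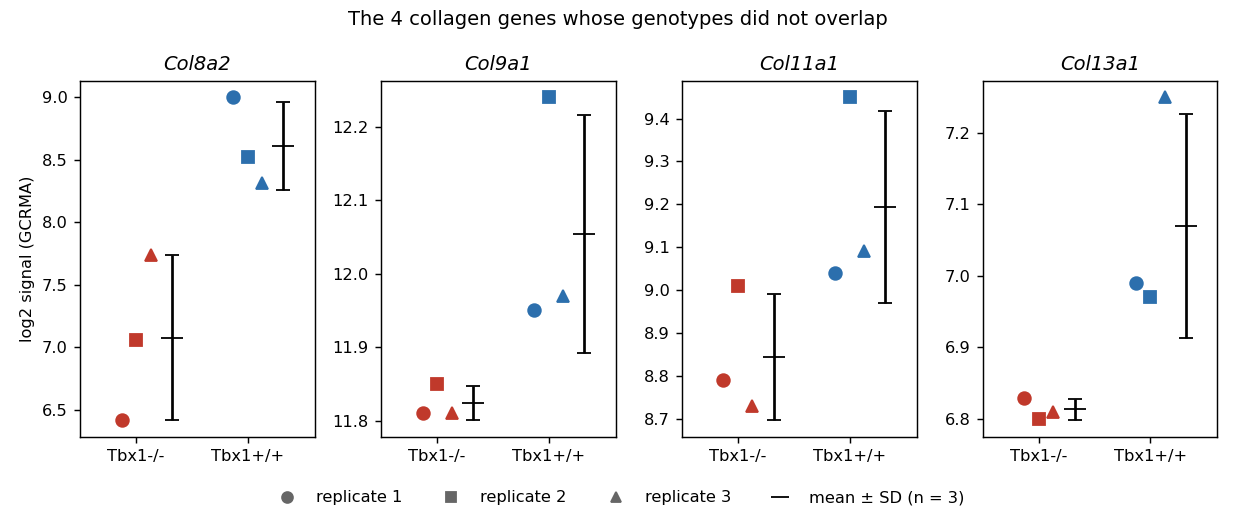
Log2 signal of Col8a2, Col9a1, Col11a1 and Col13a1 on each array, each panel with its own vertical scale, Tbx1-/- arrays to the left of Tbx1+/+ arrays, with the mean and SD of 3 arrays as bars. All 3 Tbx1-/- values lie below all 3 Tbx1+/+ values in every panel, with a difference of -1.54 for Col8a2 and of -0.23 to -0.35 for the others.

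Fibrillar collagens were all tested, 11 genes with a median difference of -0.03, and 1 of them had groups that did not overlap (9.09%, against 6.43% of all genes). Col11a1, a chain of the thin fibrils of cartilage that is also made by other mesenchyme, read 8.79, 9.01 and 8.73 on the labelled Tbx1-/- arrays, against 9.04, 9.45 and 9.09 on the labelled Tbx1+/+ arrays. The closest values, 9.01 and 9.04, almost met. Col11a1 was 1.27-fold lower (log2 difference -0.35, SE 0.134, unadjusted p = 0.0301, adjusted p = 1.00 in limma), and -0.29 without labelled Tbx1-/- replicate 3 (unadjusted p = 0.0807). Without labelled Tbx1+/+ replicate 2 it was -0.22 (limma, unadjusted p = 0.103). On its other probe set the values were 8.21, 8.23 and 7.86 on the labelled Tbx1-/- arrays and 8.36, 8.21 and 8.21 on the labelled Tbx1+/+ arrays, which overlap, with a difference of -0.16.

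Col3a1, which forms the fine fibrils of embryonic mesenchyme, read 12.01, 12.33 and 11.88 on the labelled Tbx1-/- arrays, against 12.37, 12.41 and 11.96 on the labelled Tbx1+/+ arrays. Its difference of -0.17 had a 95% interval of -0.51 to 0.16. It was lower in all 3 pairs of equal replicate number (-0.36, -0.08 and -0.08), with an unadjusted p of 0.0409 with that number as a block and 0.271 without it (adjusted p = 1.00 in both, limma). Col2a1, the main collagen of cartilage, read 10.80, 11.05 and 11.05 on the labelled Tbx1-/- arrays, against 10.92, 11.23 and 11.05 on the labelled Tbx1+/+ arrays, and its difference of -0.10 had an interval of -0.34 to 0.14. The groups overlapped in both genes.

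The type I chains, which make up the main fibril of skin and bone, varied by array. Col1a1 read 10.77, 11.45 and 10.73 on the labelled Tbx1-/- arrays, against 10.78, 10.62 and 10.73 on the labelled Tbx1+/+ arrays, so that labelled Tbx1-/- replicate 2 alone was high. Its other probe set was highest on the same array, at 9.85, against 8.76 to 9.15 elsewhere. Col1a2 read 10.81, 11.29 and 10.56 on the labelled Tbx1-/- arrays, against 10.84, 11.12 and 10.60 on the labelled Tbx1+/+ arrays, with replicate 2 the highest in both genotypes. The differences of 0.28 (SE 0.176) for Col1a1 and 0.03 (SE 0.192) for Col1a2 did not pass. Without labelled Tbx1-/- replicate 2 Col1a1 differed by 0.04, and without labelled Tbx1-/- replicate 3 by 0.40 (limma, unadjusted p = 0.0463).

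The type V chains, which join type I fibrils and limit their width, gave differences of 0.06 for Col5a1, -0.03 for Col5a2 and 0.37 (SE 0.186) for Col5a3, none past the threshold. Col5a3 read 4.82, 4.45 and 4.35 on the labelled Tbx1-/- arrays, against 4.04, 3.97 and 4.52 on the labelled Tbx1+/+ arrays, close to the level of the filter. Its difference was 0.46 without labelled Tbx1-/- replicate 3 (limma, unadjusted p = 0.0479). Col11a2, Col24a1 and Col27a1 differed by 0.05, -0.15 and -0.09.

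Basement membrane collagens had higher means on the labelled Tbx1-/- arrays in all 5 tested genes, with a median difference of 0.24. Of the 5, 0 had groups that did not overlap, where 6.43% of all genes did, and 0 passed. The 2 chains found in nearly every basement membrane followed a single array. Their genes are transcribed in opposite directions from starts that RefSeq (GRCm38.p6) places so close that the transcripts overlap by their first 22 bases, and 78 bases of their 300-base promoter windows are shared. Col4a1 read 11.32, 11.38 and 12.26 on labelled Tbx1-/- replicates 1, 2 and 3, against 11.05, 11.55 and 11.25 on the labelled Tbx1+/+ arrays. Col4a2 read 10.77, 10.97 and 11.94 on the labelled Tbx1-/- arrays, against 10.62, 11.25 and 10.98 on the labelled Tbx1+/+ arrays. Labelled Tbx1-/- replicate 3 lay above all other arrays in both, by 0.95 for Col4a1 and 1.02 for Col4a2 over their means, while the other labelled Tbx1-/- values lay within the range of the labelled Tbx1+/+ arrays. The other probe set of Col4a1 had the same order, 11.22 on that array and 9.99 to 10.26 on the rest.

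With all 6 arrays Col4a1 differed by 0.37 (SE 0.240) and Col4a2 by 0.28 (SE 0.288). Without labelled Tbx1-/- replicate 3 the differences were 0.07 and -0.08, and the median of the 5 genes was 0.07. On that array the summed signal (log2) of 7 placental trophoblast markers was 14.49, against 7.60 and 7.94 on the other labelled Tbx1-/- arrays and 7.53 to 7.75 on the labelled Tbx1+/+ arrays. For 12 markers of parietal endoderm and yolk sac it was 11.97, against 10.53 and 10.54 on the other labelled Tbx1-/- arrays and 10.48 to 11.05 on the labelled Tbx1+/+ arrays. That rise came from Thbd, at 11.48 there, where the other arrays averaged 8.53. Without Thbd, a sum chosen after its value was seen, the other 11 genes gave 10.19 on that array, against 10.12 and 10.13 on the other labelled Tbx1-/- arrays and 10.04 to 10.76 on the labelled Tbx1+/+ arrays. Of the 12 markers, 2 were more than 1 above the other arrays. Of 7 trophoblast markers 5 were, of 9 decidual markers 4, of 7 macrophage markers 1 and of 7 epithelial markers 2, while 0 of 8 endothelial markers were. Labelled Tbx1-/- replicate 2 also had 4 of the 9 decidual markers more than 1 above the other arrays, and labelled Tbx1+/+ replicate 2 had 3 of the 12 markers of parietal endoderm and yolk sac. The part of these tissues in the Col4a1 and Col4a2 values was not tested.

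**Figure D3:**
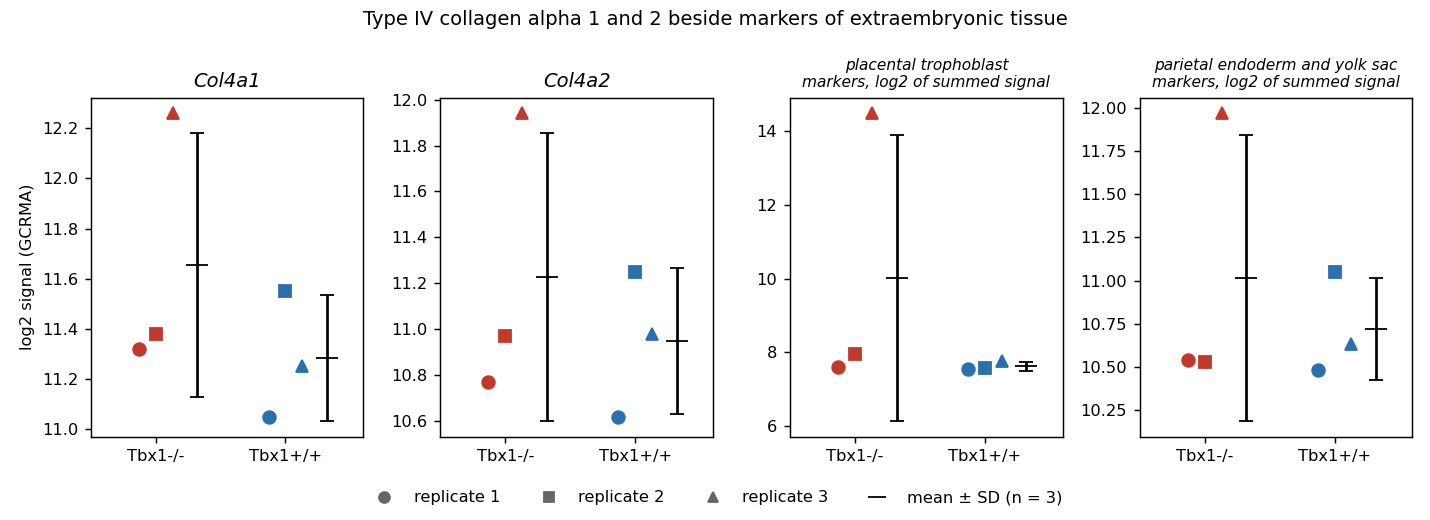
Log2 signal of Col4a1 and Col4a2, and the log2 of the summed signal of 7 trophoblast and 12 parietal endoderm and yolk sac markers, on each array, each panel with its own vertical scale and with the mean and SD of 3 arrays as bars. Tbx1-/- replicate 3 is the highest array in all 4 panels, in the last through Thbd.

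The other type IV chains belong to basement membranes of restricted tissues. Col4a5 read 9.04, 8.64 and 8.29 on the labelled Tbx1-/- arrays, against 8.76, 8.36 and 8.45 on the labelled Tbx1+/+ arrays, and was lowest on the very array on which Col4a1 was highest. Its head-to-head neighbour Col4a6 read 5.88, 5.94 and 6.03 on the labelled Tbx1-/- arrays, against 5.29, 5.90 and 5.94 on the labelled Tbx1+/+ arrays, where replicate 1 alone was low. The differences of 0.14 (SE 0.193) and 0.24 (SE 0.180) did not pass. Col4a4 differed by 0.01, and Col4a3 stayed between 3.62 and 4.11.

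FACIT collagens numbered 9, all tested, with a median difference of 0.04. Col9a1, a chain of the collagen that coats cartilage fibrils, read 11.81, 11.85 and 11.81 on the labelled Tbx1-/- arrays, against 11.95, 12.24 and 11.97 on the labelled Tbx1+/+ arrays. The labelled Tbx1-/- arrays were close together and all lower, and the difference was small, at 1.17-fold (log2 -0.23, SE 0.0849, 95% interval -0.42 to -0.03, unadjusted p = 0.0278, adjusted p = 1.00 in limma). Its other probe set repeated this order without overlap, at 8.26, 8.65 and 8.66 on the labelled Tbx1-/- arrays and 8.85, 8.85 and 8.77 on the labelled Tbx1+/+ arrays, a difference of -0.30. Without labelled Tbx1-/- replicate 3 the difference of the brightest set was -0.22 (limma, unadjusted p = 0.0566), and without labelled Tbx1+/+ replicate 2, its highest array, it was -0.13 (unadjusted p = 0.076).

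The partner chains of Col9a1 went the other way in their means. Col9a3 read 7.27, 6.91 and 6.92 on the labelled Tbx1-/- arrays, against 6.50, 6.96 and 6.91 on the labelled Tbx1+/+ arrays, with a difference of 0.24 (SE 0.162), and Col9a2 differed by 0.10 (SE 0.154). Neither passed. Whether the chains differ from each other in their response was not tested. The cartilage regulators and matrix genes read beside them, 8 tested genes such as Sox9 and Acan, had a median difference of 0.00, with 0 at an unadjusted p under 0.05 and 1 with groups that did not overlap, Snorc (5.12, 5.16 and 5.0 on the labelled Tbx1-/- arrays, against 5.17, 5.37 and 5.25 on the labelled Tbx1+/+ arrays). Over all genes 6.43% had groups that did not overlap.

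Col12a1, which links fibrils in tendon and perichondrium, was the most uneven of the remaining FACIT genes. It read 5.07, 5.53 and 4.89 on the labelled Tbx1-/- arrays, against 6.23, 5.27 and 4.88 on the labelled Tbx1+/+ arrays, and its difference of -0.30 had an interval of -1.04 to 0.45. Labelled Tbx1+/+ replicate 1 decided its sign, since the difference was 0.09 without that array. Of its other probe sets that exceeded the filter, one differed by 0.00 and another by 0.05. Col19a1 read 7.07, 7.74 and 7.43 on the labelled Tbx1-/- arrays, against 7.05, 7.37 and 7.69 on the labelled Tbx1+/+ arrays. Col22a1, known from the muscle to tendon junction, read 7.03, 7.07 and 7.22 on the labelled Tbx1-/- arrays, against 7.03, 7.30 and 7.21 on the labelled Tbx1+/+ arrays. The differences were 0.04 and -0.07, and those of Col14a1, Col16a1 and Col20a1 were 0.12, 0.04 and -0.09.

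Among the 4 transmembrane collagens 1 had groups that did not overlap, where 6.43% of all genes did. Col13a1, found at adhesive contacts such as the neuromuscular junction, read 6.83, 6.80 and 6.81 on the labelled Tbx1-/- arrays, against 6.99, 6.97 and 7.25 on the labelled Tbx1+/+ arrays. It was 1.19-fold lower (log2 difference -0.26, SE 0.116, unadjusted p = 0.0573, adjusted p = 1.00 in limma), and without labelled Tbx1-/- replicate 3 the difference was -0.25. Labelled Tbx1+/+ replicate 3 was the highest array, and without it the difference was -0.17 (limma, unadjusted p = 0.203).

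Col25a1, a neuronal membrane collagen, read 10.33, 10.48 and 10.13 on the labelled Tbx1-/- arrays, against 10.66, 10.30 and 10.30 on the labelled Tbx1+/+ arrays. Col23a1 read 8.73, 8.73 and 8.92 on the labelled Tbx1-/- arrays, against 8.59, 9.0 and 8.91 on the labelled Tbx1+/+ arrays. Col17a1, the hemidesmosome collagen of stratified epithelium, read 4.82, 4.74 and 4.87 on the labelled Tbx1-/- arrays, against 4.72, 5.0 and 4.10 on the labelled Tbx1+/+ arrays. The groups overlapped in all 3 genes, whose differences were -0.11, -0.04 and 0.21.

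The remaining collagens included type VI, which forms beaded filaments around cells, and types XV and XVIII, which attach to basement membranes and release antiangiogenic fragments. The median difference of the 7 tested genes was -0.04. The type VI chains varied with the replicate number more than with the genotype. Col6a1 read 7.18, 7.60 and 7.36 on the labelled Tbx1-/- arrays, against 6.82, 7.83 and 6.95 on the labelled Tbx1+/+ arrays. Col6a2 read 7.42, 7.81 and 7.52 on the labelled Tbx1-/- arrays, against 7.20, 8.19 and 7.60 on the labelled Tbx1+/+ arrays. Replicate 2 was the highest of its genotype in both genes, as it was for Col6a3, at 6.33, 6.76 and 6.39 on the labelled Tbx1-/- arrays, against 6.23, 6.68 and 5.61 on the labelled Tbx1+/+ arrays. The differences of 0.18, -0.08 and 0.32 had standard errors of 0.253, 0.234 and 0.255, and did not pass. Without labelled Tbx1+/+ replicate 2, Col6a1 differed by 0.49 and Col6a3 by 0.58 (adjusted p = 0.999 each in limma), while without labelled Tbx1+/+ replicate 3 they differed by 0.06 and 0.04, and Col6a1 by -0.01 without labelled Tbx1+/+ replicate 1. Without labelled Tbx1-/- replicate 2, Col6a1 differed by 0.07 and Col6a3 by 0.19. The differences of Col6a1 and Col6a3 thus changed with single arrays of either label.

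Col18a1, whose C-terminal fragment is endostatin, read 10.74, 10.95 and 11.11 on the labelled Tbx1-/- arrays, against 10.59, 11.31 and 11.02 on the labelled Tbx1+/+ arrays. Col15a1 read 7.98, 8.20 and 8.01 on the labelled Tbx1-/- arrays, against 7.85, 8.37 and 8.21 on the labelled Tbx1+/+ arrays. Col26a1 read 10.28, 10.59 and 10.44 on the labelled Tbx1-/- arrays, against 10.37, 10.70 and 10.42 on the labelled Tbx1+/+ arrays. Replicate 2 of the labelled Tbx1+/+ arrays was the highest array in all 3, and the differences were -0.04, -0.08 and -0.06. Col7a1, the anchoring fibril of skin, differed by 0.10.

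Most collagen genes could be bounded. For 21 of the 38 the 95% interval of the difference lay within 0.5 of 0 on both sides, and for 36 within 1. The exceptions to the wider bound were Col8a2 and Col12a1. Of 21 genes with several probe sets over the filter, 7 had sets that differed in sign, which were Col1a2, Col5a2, Col12a1, Col18a1, Col19a1, Col22a1 and Col23a1. Their brightest sets differed by -0.30 to 0.04.

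**Figure D4:**
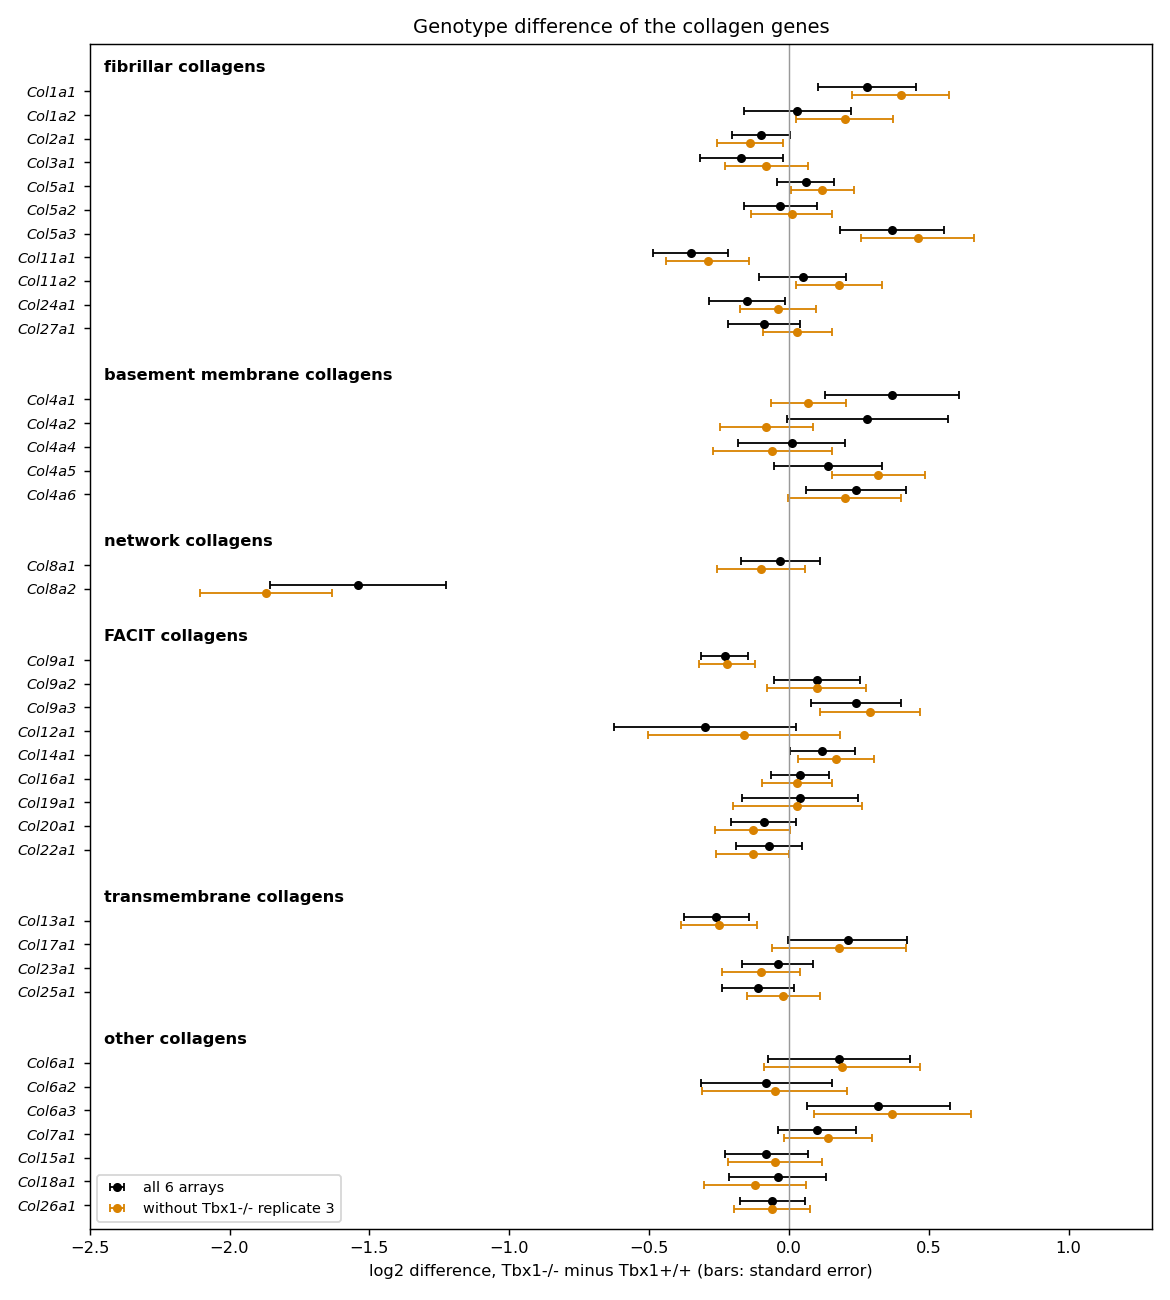
Log2 difference, Tbx1-/- minus Tbx1+/+, of the 38 tested collagen genes by class, with standard errors from the fit over all genes, for all 6 arrays (black) and without Tbx1-/- replicate 3 (orange). Col8a2 moves from -1.54 to -1.87 and Col4a2 from 0.28 to -0.08 when that array is left out.

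The collagen genes ranged more widely over the 6 arrays than all genes tested did. The range takes in any genotype difference, and the genes compared were not matched for signal level. The median range over the arrays was 0.53 for the 38 collagen genes and 0.37 for all genes tested, and 6 collagen genes (15.8%) ranged over more than 1, against 4.17% of all genes. Among them were Col8a2 (2.58), whose genotypes lay apart, and Col4a1 and Col4a2, both highest on labelled Tbx1-/- replicate 3. The others were Col12a1, Col6a1 and Col6a3. Labelled Tbx1+/+ replicate 2 was the highest array for 17 of the 38 and labelled Tbx1+/+ replicate 1 the lowest for 14. The median deviation of the 38 genes from their means over the arrays was -0.10, 0.04 and -0.04 on labelled Tbx1-/- replicates 1, 2 and 3, and -0.07, 0.16 and 0.01 on labelled Tbx1+/+ replicates 1, 2 and 3, while over all genes it stayed between -0.02 and 0.02.

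Genes that make, modify and bind collagen were read from lists, and 0 of their tested members passed after adjustment in limma. Collagen must be hydroxylated on proline to hold its helix and on lysine to be crosslinked. Of 16 tested hydroxylases and chaperones, 12 had higher and 4 lower means, with a median difference of 0.11, and 3 were higher with an unadjusted p under 0.05 and groups that did not overlap, where 1.47% and 3.17% of all genes did so. P4ha2, a prolyl 4-hydroxylase subunit, read 8.85, 8.40 and 8.41 on the labelled Tbx1-/- arrays, against 7.87, 7.77 and 7.81 on the labelled Tbx1+/+ arrays (log2 difference 0.74, SE 0.137, adjusted p = 0.353). P4ha1, the corresponding subunit of the main enzyme, read 10.20, 9.80 and 9.45 on the labelled Tbx1-/- arrays, against 9.25, 9.28 and 9.03 on the labelled Tbx1+/+ arrays (0.63, SE 0.178, adjusted p = 1.00). Plod1, a lysyl hydroxylase, read 9.0, 8.76 and 8.97 on the labelled Tbx1-/- arrays, against 8.41, 8.58 and 8.48 on the labelled Tbx1+/+ arrays (0.42, SE 0.105, adjusted p = 0.959). Labelled Tbx1-/- replicate 1 was the highest array in all 3 genes. With the mean of its 2 probe sets Plod1 differed by 0.21 (limma, unadjusted p = 0.0726). The collagen chaperone Serpinh1, also called HSP47, differed by 0.09 (SE 0.112) and the disulfide isomerase P4hb by 0.06 (SE 0.0695).

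**Figure D5:**
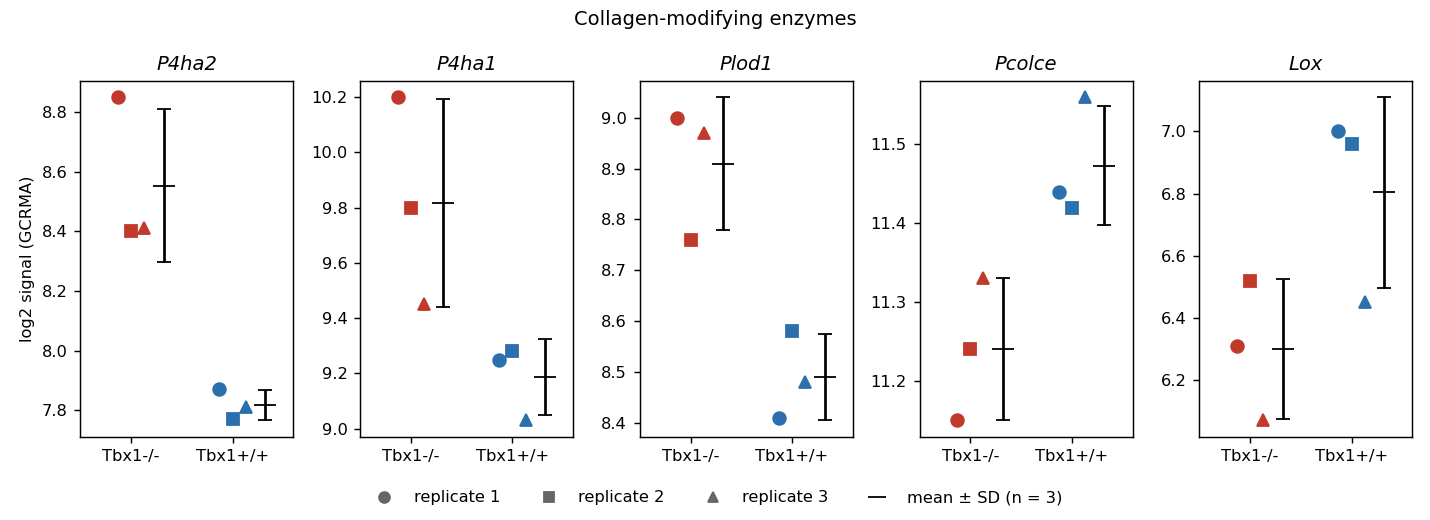
Log2 signal of 5 genes of collagen processing on each array, each panel with its own vertical scale, Tbx1-/- arrays to the left of Tbx1+/+ arrays, with the mean and SD of 3 arrays as bars. P4ha2, P4ha1 and Plod1 are higher and Pcolce is lower on all 3 Tbx1-/- arrays, and Lox overlaps between the genotypes.

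Of 11 tested genes of secretion, propeptide removal and crosslinking, 10 had lower means and 1 a higher one, with a median of -0.11. With an unadjusted p under 0.05, 2 were lower, where 1.20% of all genes were. Pcolce, which enhances removal of the C-terminal propeptide, read 11.15, 11.24 and 11.33 on the labelled Tbx1-/- arrays, against 11.44, 11.42 and 11.56 on the labelled Tbx1+/+ arrays (-0.23, SE 0.0759, unadjusted p = 0.0157). Lox, the lysyl oxidase that starts crosslinking, read 6.31, 6.52 and 6.07 on the labelled Tbx1-/- arrays, against 7.0, 6.96 and 6.45 on the labelled Tbx1+/+ arrays, so that 1 pair of values crossed (-0.50, SE 0.182, unadjusted p = 0.0243). Lox differed by -0.28 with the mean of its 3 probe sets and by -0.29 with arrays weighted by quality (limma, unadjusted p = 0.126). Adamts3, a procollagen N-proteinase, had groups that did not overlap at a difference of -0.13, which was -0.01 with the mean of its 2 probe sets. The gene with a higher mean was Tgm2, a transglutaminase, at 8.45, 8.54 and 12.99 on the labelled Tbx1-/- arrays and 7.89, 8.20 and 8.69 on the labelled Tbx1+/+ arrays, which again was high on labelled Tbx1-/- replicate 3.

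Of 9 tested receptors 0 had an unadjusted p under 0.05, with differences of -0.15 to 0.14, and Ddr2, the fibrillar collagen receptor of mesenchyme, was the one whose groups did not overlap, at 11.32, 11.34 and 11.09 on the labelled Tbx1-/- arrays and 11.48, 11.36 and 11.36 on the labelled Tbx1+/+ arrays. Its difference of -0.15 was -0.07 without labelled Tbx1-/- replicate 3, and 6.43% of all genes had groups that did not overlap. The median size of the difference was 0.04 for the receptors, 0.10 for 6 proteases and 0.16 for 10 binding proteins, against 0.07 for all genes. Of the proteases and binding proteins 0 had an unadjusted p under 0.05 or groups that did not overlap in the main fit. Some did under alternatives. With the mean of its 2 probe sets Dcn was higher without overlap, by 0.35 (limma, unadjusted p = 0.0178). Fn1 differed by 0.22 with arrays weighted by quality (unadjusted p = 0.0452), but by 0.05 with the mean of its probe sets. Ogn differed by -0.30 with the replicate block (unadjusted p = 0.0384). Sparc, a collagen-binding glycoprotein of basement membranes, read 12.01, 11.81 and 12.51 on the labelled Tbx1-/- arrays, against 11.84, 11.87 and 11.46 on the labelled Tbx1+/+ arrays, and like Col4a1 was highest on labelled Tbx1-/- replicate 3.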

How the data were processed

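RNA of mandibular arches was measured on 6 arrays, 3 labelled Tbx1-/- and 3 labelled Tbx1+/+, from 100 ng of total RNA per the labels' protocols. The authors deposited 1 log2 value per probe set and array, made with GCRMA per the submitters' processing notes, its version not given in the sources used here. GCRMA corrects background by probe sequence and normalizes between arrays, which removes a shift of most genes and compresses differences near background. That the scale is log2 was read from the values, 1.95 to 15.11 with array medians of 6.08 to 6.15.

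Of 45101 probe sets, 34958 name 1 gene, and the highest mean over the arrays chose 1 set for each of 18194 genes. Signals of different probe sets are not compared as levels. The 16074 genes above 4 on at least 3 arrays were fitted with limma 3.58.1 in R 4.3.3 (lmFit, then eBayes with trend) on genotype, adjusted by Benjamini-Hochberg with a threshold of 0.05. The fit was tested on simulated data for this comparison (10 sets, 16074 genes each, 200 of them altered). It found 87.3% of the genes altered by 1 (log2) and 99.4% of those altered by 2, and 5.27% of the genes it called were unaltered. The simulated noise was independent between arrays, with no array that stood apart as labelled Tbx1-/- replicate 3 did. These shares therefore do not give the power in the present data, where Col8a2 at -1.54 did not pass. The number of arrays limits precision.

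The members and lists were chosen with earlier results of these data known. Values on every array are given for members with groups that do not overlap, for the 2 with the smallest p and the 3 brightest of each class, and for Col1a1, Col6a2 and Col12a1, which were chosen after their values were seen. Of the lists, members past the threshold, without overlap or among the 3 smallest p could be named. Serpinh1, P4hb, Acan, Prrx1, Twist1 and Dlx5 were named as well known members, and Dcn, Thbd, Gzmd and Xist after their values were seen.

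No 2 arrays held identical values (SD of the difference within a genotype 0.247 to 0.411). Deviations of arrays with the same replicate number correlated at 0.261, 0.13 and 0.135, and of other pairs between -0.195 and 0.065. These correlations are low and come from few arrays, so they do not settle whether the numbers pair the samples. The main fit did not use the numbers, and its p-values and standard errors are unpaired. The replicate number was run as a block among the alternatives. The labels do not say what they share. With the block, the unadjusted p in limma was 0.00462 for Col11a1 and 0.0111 for Col9a1, smaller than in the main fit. It was 0.00209 for Col8a2 and 0.0673 for Col13a1, larger than in the main fit.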

Additional observations from a re-analysis of the deposited data

How the results depend on the processing

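Over all genes, 2 were higher and 4 lower past the threshold in limma. There were 0 higher and 2 lower with no filter, with a floor at 4 and with no trend in eBayes. Averaging the probe sets of each gene gave 0 higher and 0 lower. Quantile normalization of the deposited values gave 1 higher and 4 lower, and so did median centring. With the replicate number as a block there were 4 higher and 6 lower, and 0 collagen genes passed, as without it, so that the block changed no call among the collagen genes. Leaving out 1 array at a time gave 0 to 14 higher and 0 to 8 lower, and 0 to 1 collagen genes, the 1 being Col8a2 without labelled Tbx1-/- replicate 3. Collagen genes with higher values throughout on the labelled Tbx1-/- arrays numbered 1 without the filter (Col6a5) and 1 with the mean of probe sets (Col9a3). With 1 array left out they numbered 0 to 4, where fewer samples per group make such separation more frequent (13.7% to 17.0% of all genes, against 6.43%). The collagen median stayed between -0.04 and 0.05 under all 14 alternatives. With arrays weighted by quality, 2 genes over all were higher and 4 lower, and 0 collagen genes passed. At an unadjusted p under 0.05 in limma, 2 collagen genes were then higher, Col1a1 by 0.52 and Col6a3 by 0.59, and 3 lower, against 0 and 3 with equal weights. The share over all genes at that p was not taken with these weights, so the counts are not read against it. Under the 8 alternatives that use all arrays, Col8a2 differed by -1.54 to -1.46. Col8a2, Col9a1, Col11a1 and Col13a1 kept groups that did not overlap with quantile normalization, median centring and the mean of probe sets. That mean changes nothing for Col8a2 and Col13a1, which have 1 probe set each. The other alternatives with all arrays leave the values of these genes as they are, so their separation could not change there. Signals near 4 are a weak basis for a difference, which limits Col5a3, Col11a2, Col4a4 and Col17a1.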
